A study of Arabidopsis thaliana with 15 samples.

Results

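Gene expression in *Arabidopsis thaliana* plants carrying *msh1* memory was compared with that in their nonmemory full sibs in Gen1. The comparison held 6 of the 15 plants of the study, 3 memory plants and 3 nonmemory plants, chosen by the generation and the phenotype class that the labels give. All 6 were of ecotype Columbia-0, had lost an *MSH1*-RNAi transgene by segregation and descended from selfing of a plant hemizygous for it. The memory plants kept the altered growth phenotype and the nonmemory plants looked normal, so both classes share the history of *MSH1* silencing in the parent and differ in the phenotype by which they were selected. The Gen1 WT plants, used here as an outside reference, came from transformation events negative for the RNAi construct. The plants grew under 12 h days at 22 °C and were frozen at early bolting. The methods describe whole plants and the labels whole rosettes, and no source used here gives the age of the plants or the hour of harvest. Both classes trace to the same single parental line, and the labels call the 3 plants of a class biological replicates. All values are from bulk RNA, in which fewer cells of a type and less RNA per cell cannot be told apart.

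*MSH1* is a nuclear gene for a homolog of the bacterial mismatch repair protein MutS that acts in plastids and mitochondria, where it limits recombination in the organelle genomes. Plants in which it was silenced can pass on slow growth and late flowering after the silencing construct is gone, which is the state called memory. The pathways described here have known daily and seasonal roles in the rosette. A morning loop of the circadian clock (CCA1, LHY and the PRR proteins) and an evening complex repress each other in turn, and they time the expression of antenna, cold and growth genes.

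The counts on nuclear genes lay between 77799951 and 78913055 in the 6 plants, so depth was nearly even. Between 0.8789% and 1.065% of counts were not assigned to a gene, because they fell on no gene or were ambiguous between genes. Of 19748 genes tested, 4617 were called (23.4%) by edgeR's quasi-likelihood test at a Benjamini-Hochberg adjusted p under 0.05 with a log2 fold change beyond 0.5 in either direction, the thresholds used throughout. Of these 2199 (11.1%) were higher and 2418 (12.2%) lower in memory, and every count below is to be read against these shares. The median change over all genes tested was 0.01 on the log2 scale. Among called genes the median absolute log2 fold change was 0.85, and 440 genes changed by more than 2 on that scale. Plants of the 2 classes did not overlap in 98.4% of called genes. With 3 plants per class the call itself favours such genes, so this share is not a separate result. The memory plants were further apart from each other than the nonmemory plants were. The median SD of a gene on the log2 scale was 0.135 in memory, 0.087 in nonmemory and 0.0917 in WT. On the second principal component (13.1% of the variance, against 74.6% on the component that separated the classes) memory replicate 1 stood at 27.7, replicate 2 at 3.42 and replicate 3 at -32.7, while the nonmemory plants lay between -2.46 and 3.91. For genes on which memory plants differed among themselves, the values of each plant are given.

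**Figure D1:**
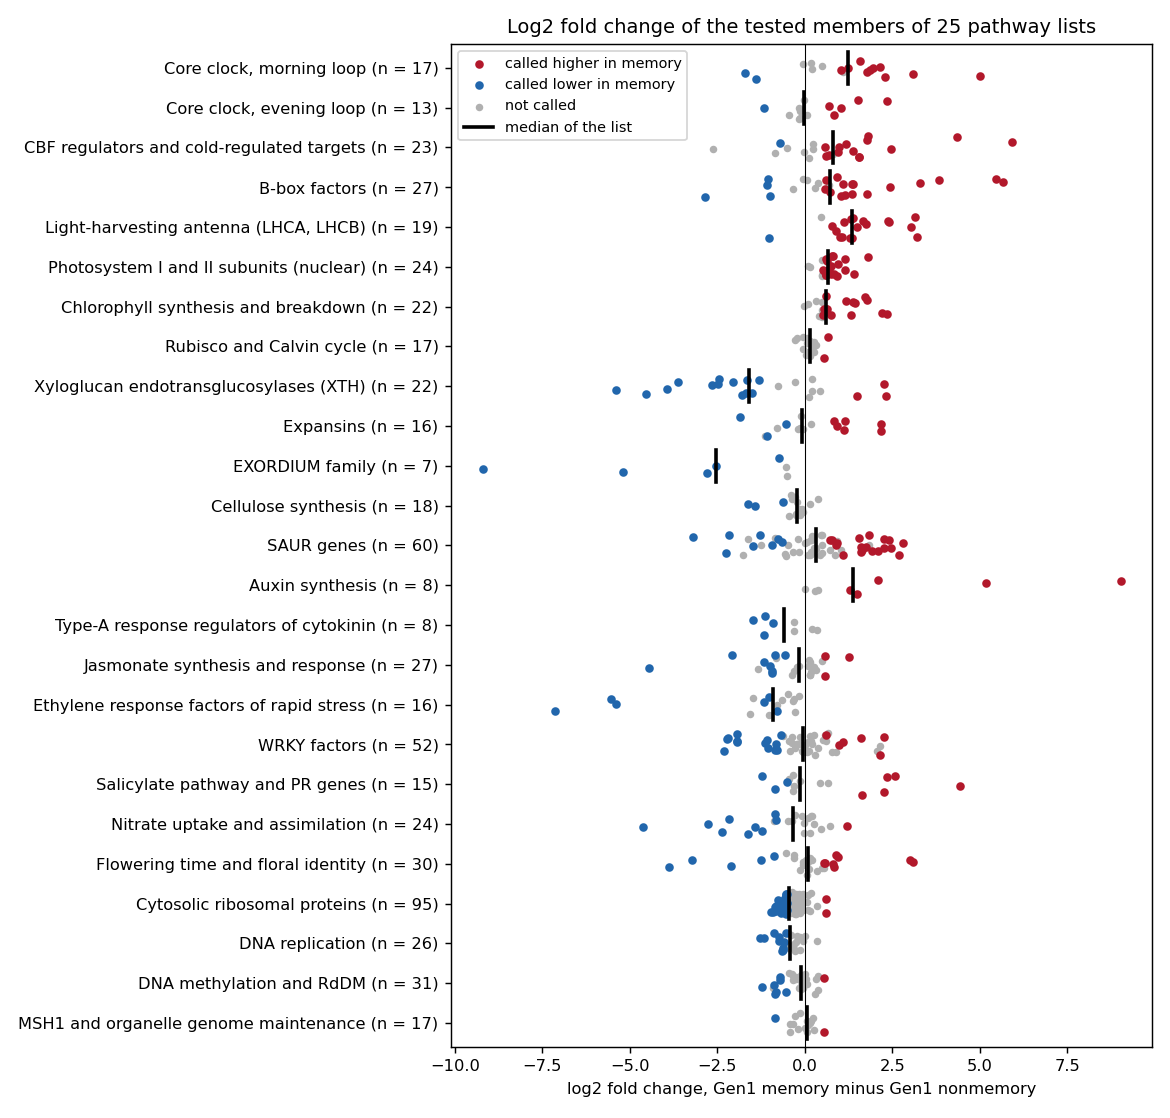
Log2 fold change, Gen1 memory minus Gen1 nonmemory (x axis), of each tested member of 25 pathway lists (y axis). A point is a gene, red where it was called higher and blue where it was called lower in memory, grey where it was not called, and a black bar is the median of the list. The antenna list had a median of 1.34 and the morning clock 1.23, whereas the XTH list stood at -1.59 and the EXORDIUM family at -2.55.

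Promoter sequences are shown for 10 genes whose groups return in the results, so that the motifs counted in these groups can be seen in place. All 10 hold the motifs marked in them and some other members of their groups do not. They therefore do not show how common a motif is in a group. Each run is the 250 bases before the annotated start of the gene in TAIR10.1, written from 5′ to 3′ on the strand of the gene, with the matched letters in capitals. The evening element (AAAATATCT) and the related CCA1-binding site (AAAAATCT) are bound by clock MYB factors of the CCA1 and RVE families. The evening element lay in the promoters of 3 genes that were higher in memory, starting at position -187 in *PRR5*, -186 in *FKF1* and -12 in *GRP8*, and *PRR5* also had the CCA1-binding site at -198. No evening element was found for the clock genes *GI* and *ELF4*, which were also higher.
PRR5 (chr5:8358547-8358796, minus strand): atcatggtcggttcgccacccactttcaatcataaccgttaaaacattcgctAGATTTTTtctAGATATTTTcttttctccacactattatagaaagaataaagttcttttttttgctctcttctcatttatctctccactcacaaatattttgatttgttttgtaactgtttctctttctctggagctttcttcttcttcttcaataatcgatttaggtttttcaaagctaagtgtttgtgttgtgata
FKF1 (chr1:25508389-25508638, plus strand): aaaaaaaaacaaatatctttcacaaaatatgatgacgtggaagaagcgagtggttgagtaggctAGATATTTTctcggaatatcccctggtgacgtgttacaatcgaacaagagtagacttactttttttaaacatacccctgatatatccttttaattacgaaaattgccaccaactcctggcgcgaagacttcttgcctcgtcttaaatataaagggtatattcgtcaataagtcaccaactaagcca
GRP8 (chr4:18275217-18275466, minus strand): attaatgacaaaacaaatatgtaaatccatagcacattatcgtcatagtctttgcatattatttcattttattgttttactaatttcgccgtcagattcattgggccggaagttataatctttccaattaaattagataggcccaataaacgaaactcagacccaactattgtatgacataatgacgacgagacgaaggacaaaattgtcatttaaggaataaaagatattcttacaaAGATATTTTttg

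The CRT/DRE core (CCGAC) is the site bound by the CBF cold factors. The promoters of the cold genes *COR78* and *GolS3*, both higher in memory, held 3 and 2 matches, shown in capitals.
COR78 (chr5:21240467-21240716, plus strand): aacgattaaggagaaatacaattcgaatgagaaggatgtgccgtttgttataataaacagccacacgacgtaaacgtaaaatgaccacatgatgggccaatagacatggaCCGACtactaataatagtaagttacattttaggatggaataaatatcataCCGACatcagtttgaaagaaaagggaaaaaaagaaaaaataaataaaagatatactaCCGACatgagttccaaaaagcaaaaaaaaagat
GolS3 (chr1:3019389-3019638, plus strand): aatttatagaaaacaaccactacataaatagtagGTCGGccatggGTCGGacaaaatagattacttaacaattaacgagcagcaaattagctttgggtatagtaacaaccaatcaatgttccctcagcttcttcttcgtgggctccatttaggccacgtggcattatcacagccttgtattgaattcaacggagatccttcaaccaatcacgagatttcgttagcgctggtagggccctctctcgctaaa

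The rapid stress element (CGCGTT) is recognised by calmodulin-binding CAMTA factors and is known from genes induced rapidly by wounding or touch. It was present upstream of *PHI-1*, *TCH2* and *MEKK1*, all lower in memory. In *TCH2* it lay on both strands at once, in 2 copies of a palindrome. Other genes that were lower, such as *TCH3*, *DREB26* and *ERF022*, had no match to this element. Its share was 4.55% among XTH and 3.85% among WRKY promoters, against 3.79% of all promoters.
PHI-1 (chr1:12851733-12851982, plus strand): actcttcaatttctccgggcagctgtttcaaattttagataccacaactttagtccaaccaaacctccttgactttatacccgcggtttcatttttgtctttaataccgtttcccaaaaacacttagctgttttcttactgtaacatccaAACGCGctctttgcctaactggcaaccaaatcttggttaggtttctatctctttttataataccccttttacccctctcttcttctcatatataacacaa
TCH2 (chr5:14999620-14999869, minus strand): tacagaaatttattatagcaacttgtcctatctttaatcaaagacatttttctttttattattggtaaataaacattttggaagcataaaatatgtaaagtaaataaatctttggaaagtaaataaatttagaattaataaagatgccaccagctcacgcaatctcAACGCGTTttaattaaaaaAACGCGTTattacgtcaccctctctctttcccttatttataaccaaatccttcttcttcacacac
MEKK1 (chr4:5407321-5407570, minus strand): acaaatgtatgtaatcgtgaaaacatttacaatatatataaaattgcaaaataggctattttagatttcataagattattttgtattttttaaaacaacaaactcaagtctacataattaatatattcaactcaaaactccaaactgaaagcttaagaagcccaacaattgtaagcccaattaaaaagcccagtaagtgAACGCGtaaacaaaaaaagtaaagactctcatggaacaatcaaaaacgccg

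The telo-box (AAACCCTA) and the site II element (GGCCCA) mark promoters of the translation apparatus. Both are shown for *FIB1*, which encodes a nucleolar fibrillarin, and the telo-box alone for AT4G29410, which encodes a protein of the large ribosomal subunit. Both genes were lower in memory.
FIB1 (chr5:21293897-21294146, plus strand): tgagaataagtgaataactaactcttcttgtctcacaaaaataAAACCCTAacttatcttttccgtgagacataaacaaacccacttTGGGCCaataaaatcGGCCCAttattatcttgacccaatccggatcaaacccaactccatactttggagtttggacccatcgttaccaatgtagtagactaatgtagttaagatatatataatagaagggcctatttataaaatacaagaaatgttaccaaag
AT4G29410 (chr4:14470198-14470447, minus strand): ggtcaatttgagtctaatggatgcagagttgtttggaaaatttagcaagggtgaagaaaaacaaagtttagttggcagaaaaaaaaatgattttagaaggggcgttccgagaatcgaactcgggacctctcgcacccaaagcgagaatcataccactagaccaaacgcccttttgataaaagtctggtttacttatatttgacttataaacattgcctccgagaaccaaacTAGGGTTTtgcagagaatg

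These motifs were counted on both strands in the window from 250 bases before to 50 bases after the start, for 19747 of the genes tested. The evening element was present in 6.78% of promoters of genes higher in memory, in 2.19% of those lower and in 3.09% of all tested. The CCA1-binding site followed the same order, with 11% of higher, 7.32% of lower and 8.14% of all promoters, and so did the G-box (CACGTG), the site of light and clock bHLH and bZIP factors, with 12.0%, 7.94% and 8.81%. The rapid stress element had the opposite order, with 2.82% of higher, 6.58% of lower and 3.79% of all promoters. The telo-box was found in 3.5% of higher, 7.98% of lower and 5.6% of all promoters. The W-box, the site of WRKY factors, was searched in 2 forms. The form TTGACC was found in 13.1% of higher, 16.7% of lower and 14.4% of all promoters. For the other form, TTGACT, the shares were 20.3%, 25.2% and 21.8%. The CRT/DRE core showed little difference over all genes (15.6%, 15.3% and 16.4%), although 9 of the 23 tested cold genes carried it (39.1%). Site II was less frequent in both called sets (14.2% and 17.2%) than in all promoters (19.1%). The letters TATAAA, searched for comparison, were in 50.8%, 54.7% and 50.5%. A match shows only that these letters are present. None of the 10 motifs holds another, although they can overlap in a promoter, and the short ones are also part of longer sites of other factors.

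**Figure D2:**
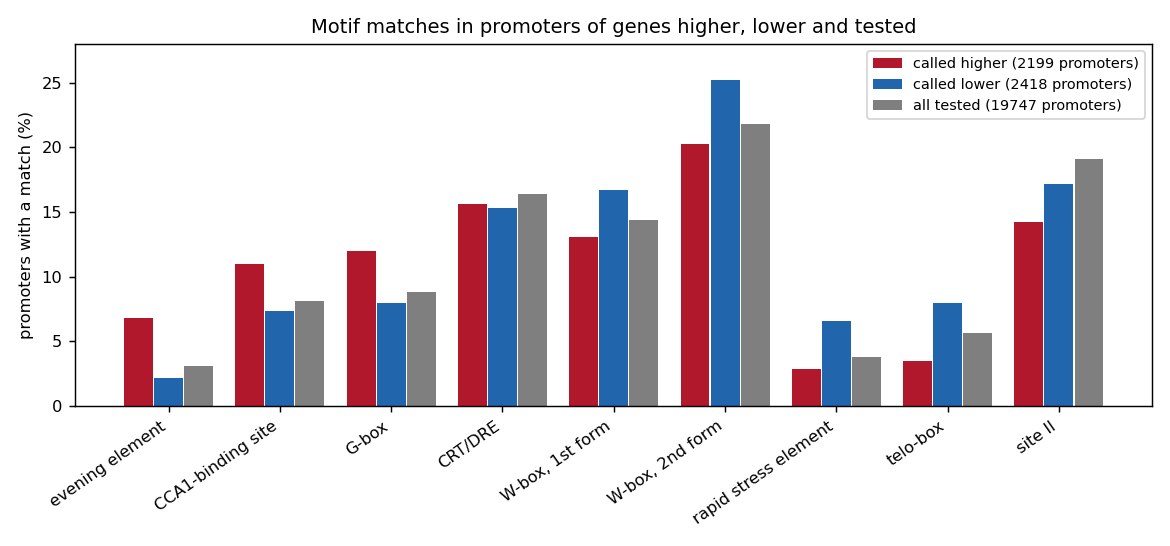
Share of promoters (y axis, %) with at least 1 match to each of 9 motifs (x axis), for genes called higher in memory (red, 2199 promoters), called lower (blue, 2418) and all tested (grey, 19747). The evening element stands at 6.78%, 2.19% and 3.09% and the rapid stress element at 2.82%, 6.58% and 3.79%.

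Most genes of the morning loop of the clock were higher in memory. Of 17 tested genes, 10 were higher and 2 lower, with a median log2 fold change of 1.23. The largest change was in *PRR9*, a morning repressor of *CCA1* and *LHY*, with normalized counts of 1785, 1209 and 777 in the memory plants and 30.0, 44.6 and 42.6 in the nonmemory plants. Every memory plant stood far above every nonmemory plant (log2 fold change 5.01 ± 0.35 SE, adjusted p = 9.32e-05). The related repressor *PRR5* was at 8539, 8536 and 12168 against 1174, 1073 and 1162 (log2 fold change 3.1), and *PRR7* at 16910, 16032 and 15169 against 4326, 5268 and 4570 (1.77). The transcriptional coactivators *LNK3* (2.3), *LNK2* (1.86), *LNK4* (1.57) and *LNK1* (1.23) were all higher. So was *CCA1*, the MYB factor at the centre of the loop, with 3445, 1451 and 1289 in memory and 429, 628 and 539 in nonmemory (1.96 ± 0.38 SE, adjusted p = 0.00581). Its partner *LHY* differed less, with 611, 254 and 336 against 139, 243 and 205 (1.04, adjusted p = 0.0481), and it lost the call without memory replicate 1 or without any of the 3 nonmemory plants, and with the replicate number as a block. The related MYB factors *RVE2* and *RVE1* went the other way. *RVE2* stood at 1090, 1661 and 2447 against 5631, 5293 and 6077 (-1.71), and *RVE1*, which promotes auxin synthesis, at 232, 173 and 67.9 against 443, 463 and 343 (-1.4), a call lost without memory replicate 2 or nonmemory replicate 1 or 2. A G-box was found in the promoters of 12 of the 17 genes (70.6%, against 8.81% of all promoters).

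The evening loop moved in part. Of its 13 tested genes, 5 were higher and 1 lower (2 lower without memory replicate 3), and the median was -0.01. *FKF1*, the blue-light receptor that degrades repressors of flowering, was at 8894, 10877 and 13918 in memory and 2181, 2054 and 2427 in nonmemory (log2 fold change 2.34, adjusted p = 9.03e-05). *GI*, its partner, had a log2 fold change of 1.52 and *ELF4*, a member of the evening complex, of 1.02. The other 2 members of that complex were not called, with -0.15 for *ELF3* and -0.44 for *LUX*. *TOC1*, the evening repressor of the morning genes, was at 12832, 15779 and 18612 against 17190, 17740 and 18354, which overlapped (-0.17, adjusted p = 0.334). *BOA*, a paralog of *LUX*, was lower (-1.18). Of 7 tested genes for RNA-binding proteins linked to the clock or to cold, 2 were higher and 0 lower (28.6%, against 23.4% of all genes), with a median of 0.23. The RNA-binding protein gene *GRP8* was at 53156, 54345 and 43744 against 13414, 15822 and 13877 (1.81), and its paralog *GRP7* had a log2 fold change of 0.84. *CDF3*, a DOF factor, is described with the flowering genes.

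Cold regulators and many of their targets were higher in memory. Of 23 tested genes, 14 were higher and 1 lower, with a median of 0.8. Leaving out 1 plant gave 10 to 13 higher and 0 to 2 lower, with medians from 0.55 to 1.01. *CBF3*, which encodes a DREB factor that switches on cold genes, showed the largest rise among called genes whose raw counts averaged 100 or more and whose classes did not overlap. It was at 3270, 2595 and 5070 in memory against 49.7, 39.7 and 92.0 in nonmemory (log2 fold change 5.92 ± 0.38 SE, adjusted p = 7.03e-05), and it overlaps the annotated gene AT4G07385, from which unstranded reads cannot separate it. The neighbouring paralogs differed less evenly. *CBF1* was at 137, 133 and 882 against 33.8, 66.9 and 108 (2.47, adjusted p = 0.0474), and *CBF2* at 721, 273 and 1122 against 75.1, 262 and 274 (1.8, adjusted p = 0.0464). At *CBF2* memory replicate 2 lay within the nonmemory range. Both calls were lost without memory replicate 3 and without any 1 of the nonmemory plants, and that on *CBF2* also without memory replicate 1 and with the replicate number as a block. *ICE1*, the activator upstream of *CBF3*, was not called (0.11). Among the targets, *COR78* was at 106789, 126146 and 168823 against 38130, 45025 and 34240 (1.78, adjusted p = 0.000427) and the dehydrin gene *LTI30* at 2413, 2952 and 4166 against 1321, 1209 and 1131 (1.38). *ERD10* (1.18), *COR413IM1* (0.98) and *COR413-PM1* (0.94) were also higher. *COR15A*, which encodes a protein that protects chloroplast membranes from freezing, overlapped between the classes, with 124154, 148683 and 222439 against 139802, 154061 and 130735 (0.23, adjusted p = 0.417). In *COR15A* both classes stood above the WT plants, at 21100, 28390 and 36749. *RAV1*, a repressor of growth that is induced by cold, was lower (-0.7) and lost that call without memory replicate 2 or nonmemory replicate 2.

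Genes of raffinose and galactinol synthesis changed in both directions. Galactinol synthase makes the donor for raffinose, and its 3 tested genes were all higher. *GolS3* was at 2066, 2106 and 2577 against 92.9, 124 and 115 (log2 fold change 4.35 ± 0.15 SE, adjusted p = 1.52e-05), and *GolS1* and *GolS2* both had a log2 fold change of 1.56. The raffinose synthase gene *RS5* was also higher (1.02). The 2 remaining genes of the list, annotated as raffinose synthases and induced by darkness or sugar depletion, were lower. *RS2* was at 3666, 4293 and 4431 against 24917, 29479 and 27063 (-2.71), and *DIN10* at 3424, 4295 and 2165 against 27824, 31481 and 29412 (-3.16). All 6 tested members of this list were called, 4 higher and 2 lower.

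**Figure D3:**
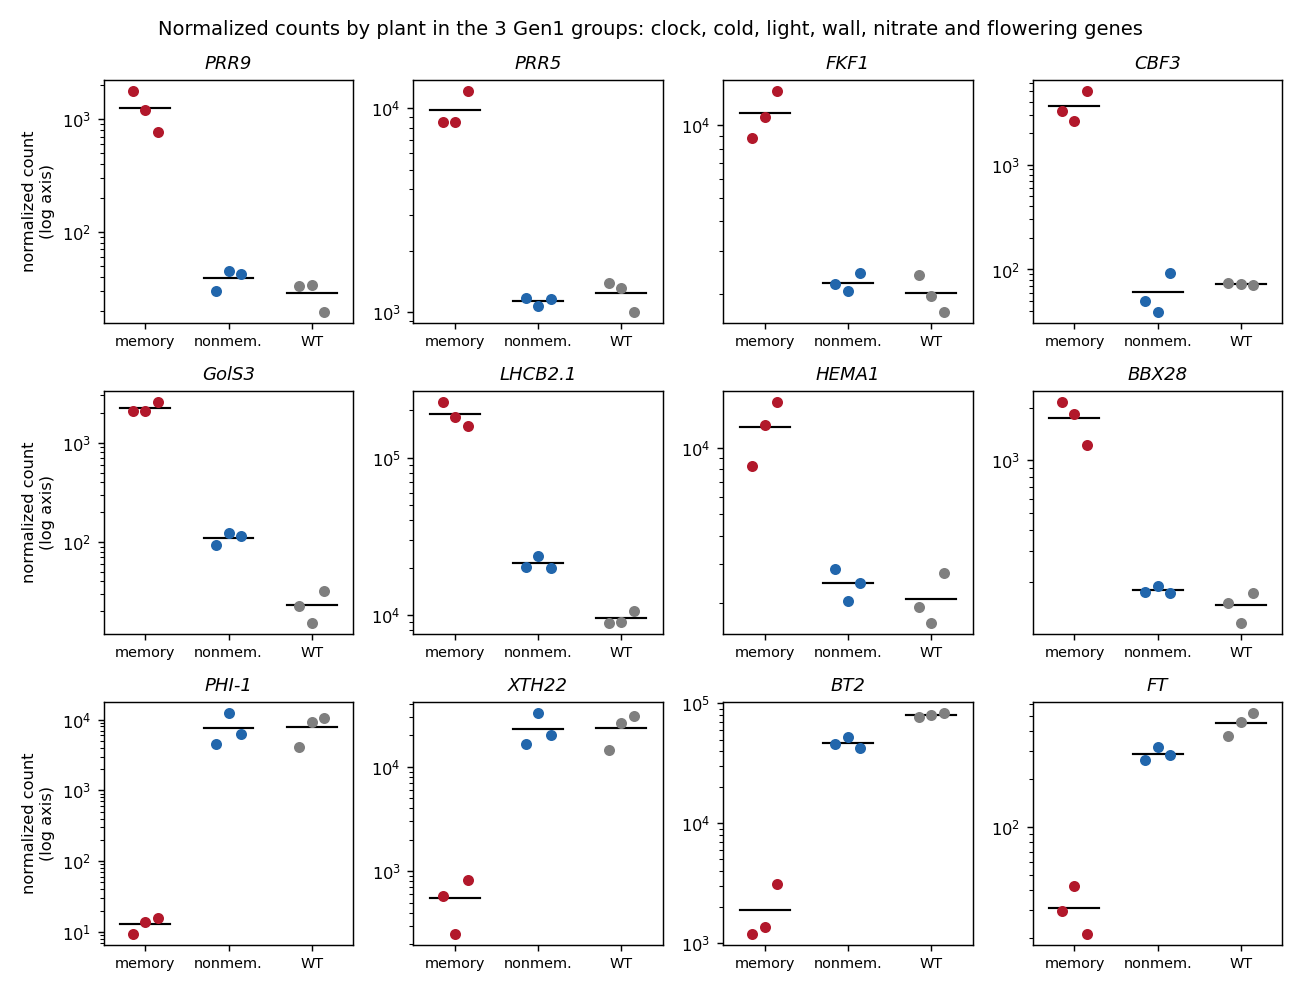
Normalized counts (y axis, log scale) of 12 genes in each of the 3 Gen1 memory (red), nonmemory (blue) and WT plants (grey), with the group mean as a black line. *PRR9* runs from 777 to 1785 in memory and from 30.0 to 44.6 in nonmemory, whereas *PHI-1* runs from 9.41 to 15.9 in memory and from 4517 to 12373 in nonmemory.

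Light harvesting genes were higher in memory almost throughout. Of 19 tested genes for antenna proteins, which carry chlorophyll and feed both photosystems, 17 were higher and 1 lower, with a median of 1.34. The sum of their normalized counts was between 7831630 and 8277828 in the memory plants and between 3279731 and 3360886 in the nonmemory plants. The 3 genes of the LHCB2 type, the mobile antenna of photosystem II, changed most. *LHCB2.3* was at 42174, 37236 and 33331 against 4546, 3862 and 3816 (log2 fold change 3.21 ± 0.12 SE, adjusted p = 1.52e-05), and *LHCB2.1* at 226403, 180367 and 158472 against 20290, 23832 and 20024 (3.14). *LHCB2.2* had a log2 fold change of 3.02, *LHCB1.4* of 2.41 and *LHCB3* of 1.66. The photosystem I antenna genes rose less, from 0.9 for *LHCA2* to 1.31 for *LHCA1*. *LHCB4.3*, a light-responsive isoform of a minor antenna, was the exception, at 2922, 2647 and 3918 against 4578, 7150 and 7553 (-1.02). Since only uniquely mapped reads were counted, antenna genes with near-identical copies are undercounted in both classes.

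Core subunits moved less than antennae. Of 24 nuclear genes of photosystems I and II, 19 were higher and 0 lower, and the median was 0.66. *PSAD-2* was at 77198, 89976 and 86647 against 27421, 22450 and 23154 (log2 fold change 1.8), whereas its paralog *PSAD-1* had 0.75. *PSBS*, which encodes the sensor of photoprotective quenching, was not called (0.14). Carbon fixation differed little. Only *RCA*, for Rubisco activase (0.65), and *GAPA-2* (0.56) were called among 17 genes of the Calvin cycle, and *RBCS1A*, for the main small subunit of Rubisco, was at 1108540, 1078673 and 1310691 against 971548, 1020349 and 1176685 (0.15, adjusted p = 0.385). The call on *GAPA-2* was lost without memory replicate 3 and without nonmemory replicate 1 or 2. Of 7 genes for light-stress proteins, 1 was called, *OHP1* (0.54), and it was not called without memory replicate 3.

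Many genes of chlorophyll synthesis and breakdown were higher, as the antenna genes were. Of 22 tested genes of both processes, 15 were higher and 0 lower, with a median of 0.61. Leaving out 1 plant gave 13 to 17 higher. *HEMA1*, for the enzyme that commits glutamate to tetrapyrroles, was at 8244, 12686 and 16059 against 2850, 2033 and 2453 (log2 fold change 2.34, adjusted p = 0.000433). *GUN5*, for the H subunit of magnesium chelatase, was at 138214, 132708 and 186145 against 40365, 39905 and 52525 (1.79), and its activator *GUN4* had 1.44. Of the light-dependent protochlorophyllide reductases, *PORA* rose by 2.21 on the log2 scale (529, 319 and 355 against 117, 80.4 and 62.0), *PORB* by 1.38 and *PORC* by 0.6. The list also holds breakdown genes, and *NYC1*, for chlorophyll b reductase, was higher too, with 8485, 19666 and 26953 against 6092, 4971 and 5590 (1.73). In *NYC1* memory replicate 1 lay near the nonmemory plants and the other 2 stood well above them. The breakdown-related genes *SGR1*, *SGR2* and *PPH* were also higher. *SGR1* lost the call without nonmemory replicate 2 or 3, *SGR2* without nonmemory replicate 3, and *PPH* without memory replicate 2 or nonmemory replicate 3. Among synthesis genes, *CHLI1* and *CHLM* lost it without memory replicate 3, and *DVR* without any plant but memory replicate 1.

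B-box zinc finger factors, which act with HY5 and COP1 in light responses, changed in both directions. Of 27 tested, 16 were higher and 4 lower, with a median of 0.71. *BBX29* was at 705, 503 and 296 against 6.57, 16.5 and 6.78 (log2 fold change 5.65 ± 0.47 SE, adjusted p = 0.000166), and *BBX28* at 2169, 1855 and 1232 against 175, 191 and 173 (3.29). *BBX31* was at 275, 43.4 and 32.9 against 5.63, 0 and 1.94 (5.46), and *BBX30* at 167, 57.2 and 66.9 against 7.51, 3.88 and 8.72 (3.84). These 4 factors had the largest rises of the 27. *BBX20*, which promotes light responses with HY5, fell by 2.86 on the log2 scale, from 328, 420 and 391 in nonmemory to 35.6, 75.2 and 45.6 in memory. *CO*, the B-box factor that activates *FT* in long days, was not called (-0.05). Among 27 photoreceptor and light signalling genes, 8 were higher and 1 lower, with 2 lower without memory replicate 3 or nonmemory replicate 2 and 3 lower without nonmemory replicate 3. The red-light receptor gene *PHYB* was at 6881, 6899 and 7237 against 2950, 3225 and 3198 (1.17), *SPA1*, a partner of COP1, had 1.26 and the growth factor *PIF4* had 0.79. *HY5* (-0.54) and *COP1* (0.37) were not called.

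XTH genes were mostly lower. Xyloglucan endotransglucosylases (XTH) cut and rejoin the xyloglucan that ties cellulose fibrils, and of 22 tested 13 were lower and 3 higher, with a median of -1.59. *XTH22*, also known as *TCH4* and induced by touch, was at 579, 252 and 827 against 16607, 32739 and 20311 (log2 fold change -5.39 ± 0.48 SE, adjusted p = 0.000233). *XTH23* was at 48.1, 25.4 and 26.5 against 304, 1229 and 815 (-4.54), *XTH33* at 17.8, 27.5 and 11.7 against 270, 311 and 295 (-3.93) and *XTH4* at 3918, 3849 and 3761 against 21873, 20782 and 21027 (-2.46). Plants of a class agreed closely at *XTH4*, where the SD was 78.7 in memory and 572 in nonmemory. *XTH31* was higher, at 1765, 1368 and 2375 against 258, 375 and 480 (2.31). The count of 3 higher members became 1 without nonmemory replicate 1 or without replicate 2, while that of 13 lower members was the same without each plant.

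Expansins, which loosen walls without cutting them, were called in both directions, with 6 higher and 3 lower of 16, a median of -0.08 and 9 of the 16 values below 0. *EXPA1* was at 10838, 12866 and 11144 against 3099, 2142 and 2481 (log2 fold change 2.18) and *EXPA8* at 7434, 8127 and 5762 against 2284, 1258 and 1216 (2.17). *EXPA16* was at 634, 387 and 579 against 2002, 1551 and 2238 (-1.85). Without memory replicate 3, 5 expansin genes were higher and 5 lower. Of 18 cellulose synthesis genes, 3 were lower and 0 higher, among them *CESA5* (-0.63) and *CSLC04*, for a xyloglucan backbone synthase (-1.43). The main primary wall subunits were not called, with -0.22 for *CESA1*, -0.11 for *CESA3* and -0.38 for *CESA6*.

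The EXORDIUM family, extracellular proteins that link carbon status to growth, included *PHI-1*, which had the largest fall among called genes with a mean raw count of 100 or more and separate classes. It was at 9.41, 13.8 and 15.9 in memory and at 4517, 12373 and 6166 in nonmemory (log2 fold change -9.19 ± 0.55 SE, adjusted p = 5.91e-05). *EXO*, the founding member, was at 267, 161 and 224 against 5766, 11826 and 6316 (-5.19). *EXL3* was at 2788, 2720 and 2938 against 19295, 20808 and 18163 (-2.78), and *EXL5* had -2.55. Of 7 tested members, 5 were lower and 0 higher. The touch-induced calmodulin-like genes *TCH3* (-1.94) and *TCH2* (-2.05) were lower as well. Their list of touch and calmodulin-like genes had 5 lower and 0 higher of 14, and 4 to 6 lower without 1 plant. The 5 include *XTH22*, which is counted among the XTH genes too. In *TCH2* memory replicate 3 was at 2969 and the others at 1009 and 421, against 4725, 7290 and 6223. That call was lost without memory replicate 1 and without any 1 of the nonmemory plants. The wall genes *THE1* and *LRX3*, chosen after their values were seen, fell evenly. *THE1*, a receptor kinase that reads wall integrity, was at 1824, 1879 and 1804 against 14252, 14558 and 13594 (-2.94), and *LRX3*, for an extensin that binds signalling peptides in the wall, at 3872, 3551 and 3427 against 36290, 48529 and 39051 (-3.51).

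Auxin is made from tryptophan by TAA1 and the YUCCA enzymes. Of 8 tested synthesis genes, 5 were higher and 0 lower, with a median of 1.39. *YUC8* was at 161, 97.4 and 97.6 against 5.63, 3.88 and 0 (log2 fold change 5.17, adjusted p = 0.000735). *YUC9* was at 82.6, 45.5 and 66.9 and had no count in any nonmemory plant, so it was at least 67.8-fold higher in memory, taking 3 counts over the group as the floor. *YUC2* rose by 1.5 on the log2 scale, a call lost without nonmemory replicate 1 or 2, and *TAA1*, for the aminotransferase of the preceding step, rose by 1.28. *CYP79B2*, whose product feeds both auxin and indole glucosinolates, was at 4829, 2876 and 2540 against 666, 905 and 853 (2.08). With at least 10 counts required in every plant, 3 of these genes remained testable and higher. Of 60 tested SAUR genes, rapid auxin targets that acidify the wall, 19 were higher and 8 lower. *SAUR16* was at 3025, 2768 and 1485 against 516, 265 and 270 (2.8), and the adjacent cluster *SAUR19* to *SAUR23* contributed 5 of the rises, from 1.64 for *SAUR19* to 2.47 for *SAUR22*. The stress-linked *SAUR78* was lower (-2.16). Without memory replicate 2, 12 SAUR genes were higher, and without nonmemory replicate 2, 5 were lower. These short genes have similar copies, and unique mapping leaves reads out.

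The Aux/IAA repressors of the auxin response were mixed, with 2 higher and 6 lower of 25. *IAA29*, a shade and warmth target, was at 808, 702 and 567 against 185, 92.0 and 94.9 (log2 fold change 2.48), and *IAA30* at 24.1, 13.8 and 18.0 against 87.3, 63.9 and 80.4 (-2.04). Of the GH3 enzymes, which conjugate auxin and other acids, 4 were higher and 2 lower of 8, including *GH3.3* (1.77) and *GH3.1* (-2.51), the latter lost without memory replicate 2 or nonmemory replicate 1 or 3. Without nonmemory replicate 1 or without replicate 3, 2 of them were higher and 1 lower. Transport changed in few genes. The efflux carrier gene *PIN7* was at 10714, 11260 and 10910 against 4891, 4318 and 4347 (1.28) and *PIN3* at 5314, 5392 and 5083 against 10095, 8301 and 7808 (-0.73), among 1 higher and 2 lower of 13 (2 higher without memory replicate 2 or nonmemory replicate 3).

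Cytokinin response regulators were lower where called, while gibberellin and brassinosteroid genes changed in both directions. Of 8 type-A response regulators, which are induced by cytokinin and damp it, 4 were lower and 0 higher. *ARR5* was at 626, 552 and 535 against 1556, 1173 and 2075 (log2 fold change -1.48), and *ARR7* at 1139, 922 and 1159 against 2261, 1555 and 3499 (-1.18). The WT plants were at 687, 752 and 765 for *ARR5* and at 826, 810 and 808 for *ARR7*, so that the nonmemory plants stood above WT in these genes. Gibberellin genes were higher in 6 and lower in 2 of 15. *GA2OX1*, for an inactivating enzyme, was at 85.8, 64.6 and 249 against 22.5, 18.4 and 13.6 (2.87), the DELLA repressor *RGL2* at 451, 377 and 384 against 69.4, 53.3 and 97.8 (2.46), and *GA3OX1*, for the activating enzyme, at 167, 64.6 and 115 against 350, 359 and 322 (-1.57). For brassinosteroids 1 gene was higher and 4 lower of 15. *DWF4*, for a rate-limiting hydroxylase of synthesis, was lower (-0.96), as were the response factors *BZR1* (-0.6) and *BES1* (-0.65) and the inactivating enzyme gene *SOB7* (-2.16). *SOB5*, a cytokinin-linked gene that was not in the lists and belongs to the 10 largest falls, was at 3.14, 8.47 and 2.12 against 184, 218 and 250 (-5.53).

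Ethylene response factors that are induced within minutes of a stimulus were lower in memory. All 16 tested ethylene response factors of rapid stress had a negative log2 fold change, and 6 were called lower (median -0.91). *DREB26* was at 34.5, 39.2 and 41.4 against 1138, 2859 and 1367 (-5.54 ± 0.42 SE, adjusted p = 0.000119). *ERF022* was at 2.09, 1.06 and 3.18 against 76.0, 510 and 366 (-7.15). *RRTF1*, a redox-responsive factor, was at 6.28, 9.53 and 24.4 against 35.7, 941 and 740 (-5.4), with nonmemory replicate 1 far below the other 2, and its reads overlap 2 other annotated genes. Without memory replicate 2 or nonmemory replicate 2, 3 factors of this list were lower. Ethylene synthesis changed by isoform, with *ACS11* at 37.7, 7.41 and 8.49 against 194, 400 and 435 (-4.25) and *ACS6* lower too (-1.94), but *ACS2* higher (2.88), a call lost without nonmemory replicate 3. Over the list of ethylene synthesis and response, 4 were higher and 5 lower of 21, and the signalling core *EIN2* (0.42) was not called.

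Abscisic acid genes were higher in 6 and lower in 2 of 23. *ABA1*, for zeaxanthin epoxidase at the start of the pathway, was at 36082, 30299 and 32434 against 10546, 12721 and 11936 (log2 fold change 1.49, adjusted p = 8.44e-05), whereas *NCED3*, for the cleavage step induced by drought, was not called (0.52). Genes for the inactivating 8′-hydroxylase did not move together. *CYP707A3* was at 129, 112 and 239 against 1116, 3648 and 2818 (-3.98), *CYP707A1* fell by 2.41, and *CYP707A2* was at 825, 505 and 452 against 131, 159 and 148 (2.03). Jasmonate genes were lower in 8 and higher in 3 of 27, with 5 lower without memory replicate 1 or nonmemory replicate 2. Of the 8 lower genes 6 were JAZ repressors, which are themselves induced by jasmonate. The calls on *JAZ5* and *JAZ10* were lost without memory replicate 1 or 3 or nonmemory replicate 2 or 3. Both were also lost in the fit over 15 plants. *JAZ5* further lost its call without memory replicate 2 and with the replicate number as a block. *JAZ9* lost its call without memory replicate 1 or nonmemory replicate 2. *JAZ7* was at 9.41, 6.35 and 6.37 against 91.9, 280 and 120 (-4.45), and *LOX4*, for a lipoxygenase of the pathway, was also lower (-2.09). *MYC2*, the main response factor, was not called (0.08), nor was *AOS* (0.33), while the storage protein gene *VSP2* was higher (1.25) and lost that call without nonmemory replicate 1 or 2.

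Genes of the salicylate pathway were spread widely among the memory plants. *PR1*, the marker of systemic resistance, was at 73605, 15071 and 4596 in memory replicates 1, 2 and 3, against 2480, 1241 and 626 in nonmemory and 32101, 29313 and 3105 in WT. The memory and nonmemory plants did not overlap (log2 fold change 4.43 ± 1.05 SE, adjusted p = 0.0134), but the call was lost without nonmemory replicate 2 or 3. *PR2* was at 166864, 53180 and 14739 against 13776, 16309 and 8935 (2.59), *PR5* at 129331, 29944 and 11226 against 9849, 14551 and 9202 (2.35), and *ICS1*, for the enzyme that makes most salicylate, at 7086, 2684 and 1262 against 1075, 1384 and 1080 (1.64). In these 3 genes memory replicate 3 lay within the nonmemory range or near it. None of the 3 calls held without memory replicate 1, without memory replicate 2 or without any 1 of the nonmemory plants, and those on *PR5* and *ICS1* were also lost with the replicate number as a block. The pipecolate genes *ALD1* and *FMO1*, the latter chosen after its values were seen, followed the same order of plants, with 1900, 531 and 156 against 27.2, 22.3 and 53.3 for *ALD1* (4.66) and 743, 476 and 92.3 against 48.8, 32.0 and 32.0 for *FMO1* (3.54). The sugar phosphate transporter gene *GPT2* did too, with 706, 211 and 34.0 against 22.5, 8.72 and 25.2 (4.07), and its call was lost without any 1 of the nonmemory plants. Over the list of 15 genes, 5 were higher and 3 lower. The 5 became 2 without memory replicate 1 or 2, 1 without nonmemory replicate 1 and 0 without nonmemory replicate 2 or 3, and the 3 lower became 6 without memory replicate 1. The receptors and regulators did not follow *PR1*. *NPR3*, a salicylate receptor that restrains the response, was at 2347, 2235 and 2007 against 4610, 5701 and 5031 (-1.22), *NPR1* (-0.15) and *EDS1* (-0.31) were not called, and *WRKY70* was lower (-0.84).

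**Figure D4:**
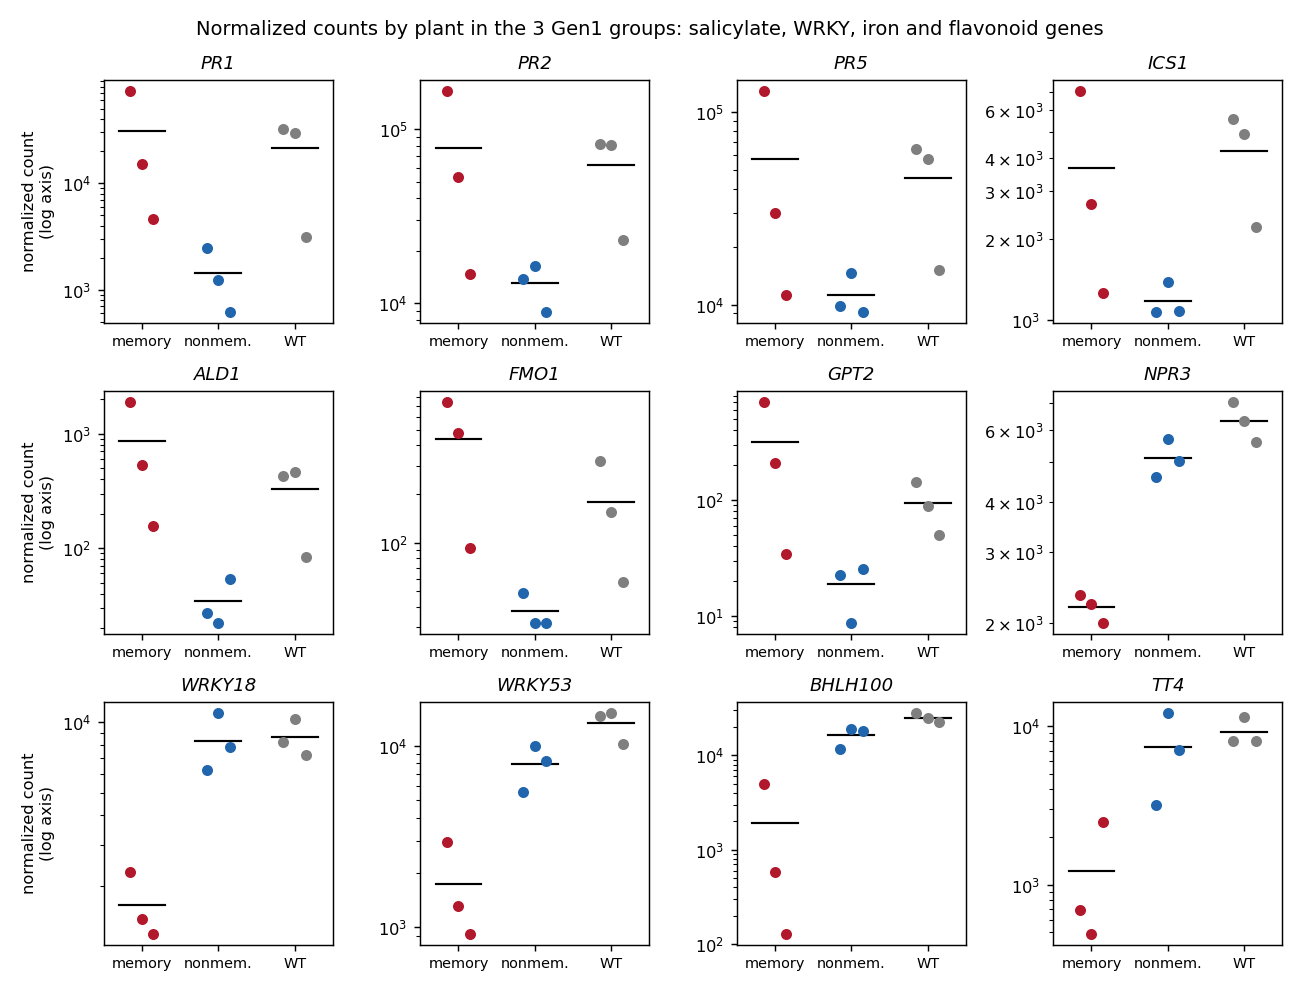
Normalized counts (y axis, log scale) of 12 salicylate, WRKY, iron and flavonoid genes in each of the 3 Gen1 memory (red), nonmemory (blue) and WT plants (grey), with the group mean as a black line and replicates 1 to 3 drawn from left to right. *PR1* runs from 4596 to 73605 among memory plants, and *NPR3* from 2007 to 2347.

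More genes of early defence signalling were lower than higher in memory. The medians of the 3 lists were near 0, at -0.05 for WRKY, -0.1 for MAP kinase cascade and -0.08 for pattern-triggered immunity genes. Of 52 WRKY factors, 13 were lower and 6 higher. *WRKY18* was at 2289, 1449 and 1255 against 6239, 10889 and 7777 (log2 fold change -2.31), *WRKY40* at 667, 377 and 731 against 904, 3363 and 4047 (-2.22) and *WRKY53* at 2971, 1310 and 922 against 5580, 10008 and 8282 (-2.19). All 3 are induced rapidly by wounding and microbial patterns. The call on *WRKY40* was lost without memory replicate 2. *WRKY42* (2.27) and *WRKY75* (2.15), linked to phosphate supply, were among the higher ones, the call on *WRKY75* being lost without memory replicate 1 or any 1 nonmemory plant. The number of higher ones became 11 without memory replicate 3 and 3 without nonmemory replicate 1. Of 47 MAP kinase cascade genes, 9 were lower and 5 higher. The 9 became 6 to 13 without 1 plant, and the 5 became 3 without memory replicate 2 or nonmemory replicate 1 or 2. *MEKK1*, a kinase kinase kinase of pattern signalling, was at 2515, 2150 and 2146 against 4342, 4791 and 5150 (-1.06). The MAP kinase gene *MPK3* had -0.76, whereas *MPK4* and *MPK6* were not called. Among 19 genes of pattern-triggered immunity, 5 were lower and 2 higher (1 higher without nonmemory replicate 2). The NADPH oxidase gene *RBOHD* was at 6335, 5372 and 5084 against 9613, 13545 and 12407 (-1.08), and the receptor genes *FLS2* and *EFR* were not called.

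Genes that respond to nitrate and to sugar starvation were more often lower than higher. Of 24 nitrate genes, 9 were lower and 1 higher (2 higher without memory replicate 1 or 3). *BT2*, a scaffold protein that responds to nitrate, sugar and the clock, was at 1200, 1357 and 3118 against 45903, 52381 and 42110 (log2 fold change -4.63 ± 0.39 SE, adjusted p = 0.00018). Its relatives *BT4* (-2.77), *BT5* (-2.37) and *BT1* (-1.43) were lower too. *NIA2*, for the main nitrate reductase, was at 34462, 26267 and 27773 against 76996, 84742 and 109435 (-1.61), and the nitrate-induced repressor *LBD38* had -2.16. The uptake sensor *NRT1.1* (0.1) and the regulator *NLP7* (-0.07) were not called. Of 14 sugar starvation markers 6 were lower and 0 higher (2 higher without memory replicate 2 or 3), including the trehalose phosphate synthase-like genes *TPS9*, at 509, 607 and 454 against 3146, 3603 and 3791 (-2.74), and *TPS8* (-2.04). The kinase subunits that sense energy, *KIN10* (0.02) and *KIN11* (0.04), were not called. *STP1*, for a monosaccharide importer repressed by sugar, was chosen after its values were seen and was at 7390, 7656 and 4895 against 43785, 47438 and 44191 (-2.76).

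A list of sulfur limitation genes was added because *SDI1* (*ATSDI1*) was among the 10 largest falls, so its members were chosen after values were seen. *SDI1*, which lowers glucosinolate synthesis when sulfate is short, was at 362, 450 and 577 against 15657, 16424 and 7955 (log2 fold change -4.85 ± 0.33 SE, adjusted p = 8.33e-05). Of 16 tested genes 14 were lower and 0 higher, with a median of -1.6, and 13 or 14 were lower without each plant. *SHM7* was at 2987, 3226 and 3386 against 31325, 39145 and 25929 (-3.32), *LSU1* at 123, 151 and 180 against 1351, 1606 and 568 (-2.95), and the glutathione-degrading enzyme gene *GGCT2;1* at 398, 572 and 540 against 4265, 4160 and 2724 (-2.88). The sulfate reduction genes *APR3* (-2.37), *APR2* (-1.51) and *APR1* (-1.49) were all lower. *SLIM1*, the regulator of this response, was at 1205, 1184 and 1314 against 1185, 1163 and 1156 and was not called (0.08).

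Glucosinolates are sulfur-rich defence compounds, and their aliphatic pathway was higher in 13 and lower in 0 of 22 genes (median 0.67). The regulators led. *MYB76* was at 196, 182 and 125 against 34.7, 44.6 and 40.7 (log2 fold change 2.07), *MYB29* at 1304, 1419 and 1138 against 333, 385 and 434 (1.75) and *MYB28* at 4935, 5891 and 5143 against 2509, 2068 and 2484 (1.18). *CYP79F1*, for the enzyme that enters the core pathway, overlapped between the classes at 21561, 17903 and 11533 against 8543, 11916 and 10931 (0.7), and its call was lost without memory replicate 1 or 2, without any 1 of the nonmemory plants and with the replicate number as a block. Without nonmemory replicate 1, 8 genes of the list were higher. The nonmemory plants themselves stood below WT here, with 20 of the 22 genes called between nonmemory and WT, all lower in nonmemory. Of 17 indole glucosinolate genes 5 were higher and 3 lower, with *MYB34* higher (2.28) and *MYB51* lower (-0.83).

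In several iron genes memory replicate 1 stood apart from the other 2. *BHLH100*, induced by iron deficiency, was at 4998, 577 and 128 against 11643, 19039 and 18354, without a call (log2 fold change -3.1, adjusted p = 0.058), and *BHLH101* at 857, 180 and 63.7 against 2053, 2618 and 2103 (-2.62, adjusted p = 0.0298). Genes of iron excess had the opposite order. The ferritin gene *FER1* was at 746, 4263 and 4364 against 724, 447 and 508 (2.48), and *NEET*, for an iron-sulfur protein, at 822, 3180 and 5366 against 388, 207 and 323 (3.35). Of 21 genes 5 were higher and 4 lower. The 4 became 11 without memory replicate 1, 7 without memory replicate 3, and 2 without memory replicate 2 or any 1 nonmemory plant, and the 5 became 3 without nonmemory replicate 3. The calls on *BHLH101* and *BTS* (-1.38) were lost without memory replicate 2 or any 1 nonmemory plant, and that on *FER1* without nonmemory replicate 2 or 3. Of 17 genes of reactive oxygen and copper, 6 were higher and 0 lower (35.3%), with a median of 0.13. All 3 catalase genes, whose products break down peroxide, were among them, with *CAT3* at 403647, 717547 and 529959 against 213662, 147418 and 150859 (1.69), *CAT2* at 1.36 and *CAT1* at 0.68 on the log2 scale. Of the peroxidases that use ascorbate, *SAPX* (1.77) and *APX1* (0.91) were higher and *TAPX* was not called (0.16), and *FSD3*, for a plastid superoxide dismutase, was higher (0.55) but lost the call without memory replicate 1 or 3 or any 1 nonmemory plant.

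Flowering genes changed in both directions. *FT*, the mobile floral signal, was at 29.3, 42.3 and 21.2 against 265, 319 and 284 (log2 fold change -3.21 ± 0.26 SE, adjusted p = 0.000153), and its twin *TSF* at 0, 3.18 and 2.12 against 16.9, 42.6 and 24.2 (-3.89). *FLC*, the repressor of *FT*, was at 533, 205 and 155 against 58.2, 8.72 and 43.6 (3.01). *CDF3*, a DOF repressor degraded by FKF1 and GI, was at 5904, 5716 and 6064 against 755, 675 and 667 (3.08). *TEM2*, another repressor of *FT*, was at 1075, 787 and 901 against 3807, 4787 and 3300 (-2.1), *CDF2* was lower (-1.24), and *SOC1*, a promoter of flowering, was higher (0.57), a call lost without memory replicate 2. Of 30 tested genes 8 were higher and 5 lower. Markers of flowers were near the limit of detection in both classes, since 2 of 10 passed the filter on low counts and 0 were called, and none of the 4 markers of the shoot meristem or the 6 of seed and embryo passed it.

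Genes of translation and DNA replication were called lower more often than higher. Of 95 tested genes annotated as cytosolic ribosomal protein families, L18ae-type proteins included, 37 were lower and 2 higher, with a median of -0.46, a range from -0.98 to 0.6 and 87 values below 0. Leaving out 1 plant gave 32 to 44 lower, and without memory replicate 2, 1 was higher. The sum of their normalized counts was 520267 to 570856 in memory and 735053 to 772325 in nonmemory. AT4G29410 was at 4410 on average in memory and 7742 in nonmemory (log2 fold change -0.81). The nucleolar genes *FIB1*, at 8229, 7528 and 8137 against 13823, 14526 and 14322 (-0.83), *FIB2* (-1.02) and *PES* (-0.82) were among 5 lower and 0 higher of 13 ribosome biogenesis genes, while *NUC1*, for nucleolin, was not called (-0.34). A telo-box was present in 39 of the 95 ribosomal protein promoters (41.1%, against 5.6% of all) and site II in 52 (54.7%, against 19.1%). Of 26 replication genes 10 were lower and 0 higher (median -0.43, from -1.27 to 0.35), and leaving out 1 plant gave 7 to 14 lower. *TSO2*, for a subunit of ribonucleotide reductase, was at 7771, 4086 and 4811 against 11516, 14764 and 14101 (-1.27), and *CDC45* was also lower (-1.16). Mitotic genes were called in 2 cases higher and 2 lower of 34. The 2 higher became 1 without memory replicate 1 and 0 without memory replicate 3 or nonmemory replicate 2 or 3. The 2 lower became 5 without memory replicate 3 and 1 without any other plant. Of 42 histone genes 11 were lower and 1 higher. Without memory replicate 2, 7 were lower, and the 1 higher became 2 without memory replicate 1 and 3 without nonmemory replicate 1.

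Some enzymes that maintain DNA methylation were lower in memory. Of 31 genes of methylation and RNA-directed DNA methylation, 7 were lower and 1 higher, a share called (25.8%) near that of all genes. *CMT3*, for the CHG methyltransferase, was at 1272, 1015 and 1233 against 2713, 2559 and 2913 (log2 fold change -1.21, adjusted p = 0.000165), and *KYP*, whose histone mark recruits it, at 706, 671 and 687 against 1122, 1134 and 1099 (-0.7). The other lower members were *MET1*, for the CG methyltransferase (-0.72), the chromatin remodeller gene *DDM1* (-0.82), the methyl-cytosine readers *VIM3* (-0.89) and *VIM1* (-0.86), and *RDM1*, of the RNA-directed pathway (-0.53), a call lost without memory replicate 1. The higher member was *SUVH9*, which helps to recruit the polymerase of that pathway (0.56). *NRPD1* (-0.44) and *DRM2* (-0.25), both of the RNA-directed pathway, were not called. Of 9 demethylation genes, *DML3* was at 518, 451 and 484 against 176, 203 and 256 (1.2), *MBD7* was lower (-0.8) and the only lower one, with 2 lower without memory replicate 3 or nonmemory replicate 2, and *ROS1* (-0.3) and *DME* (0.02) were not called.

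*MSH1* itself was at 891, 865 and 874 in memory, 762, 819 and 763 in nonmemory and 789, 780 and 812 in WT. The memory plants lay above the others, but the change was small and not called (log2 fold change 0.17 ± 0.08 SE, adjusted p = 0.119). Of 17 genes of organelle genome maintenance, *WHY1* was higher (0.54) and *SSB1* lower (-0.84), with the call on *WHY1* lost without memory replicate 3. Transcripts that report mitochondrial or plastid stress to the nucleus were higher in 8 and lower in 0 of 15 (median 0.88). *AOX1A*, for the alternative oxidase, was at 4510, 4089 and 5064 against 2242, 2613 and 2475 (0.9), and *SIG5* (1.39), *NDA1* (1.5) and *GUN1* (0.96) were higher. The upstream factor gene *ANAC017* was not called (-0.04). *PRPL11*, for plastid ribosomal protein L11, was chosen after its values were seen and was at 1004, 1294 and 1453 against 14490, 13675 and 8631 (-3.29). Counts on organelle genes were 0 in every table, so transcripts of the organelle genomes were not analysed here.

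Smaller lists are given by count. Heat shock genes were lower in 12 and higher in 4 of 39, with *HSFA2*, a heat factor, at 235, 202 and 139 against 1178, 1146 and 443 (log2 fold change -2.26), and the 4 became 2 without memory replicate 1 or 2 or nonmemory replicate 3. Starch genes were higher in 7 and lower in 1 of 28, with *GBSS1*, for amylose synthesis, at 3928, 1916 and 1373 against 692, 830 and 752 (1.67). Flavonoid genes were lower in 4 and higher in 1 of 25. *TT4*, for chalcone synthase, was at 692, 489 and 2496 against 3171, 12090 and 7034 (-2.6), a call lost without memory replicate 1 or 2 or nonmemory replicate 2 or 3. The 4 became 7 without memory replicate 3, 2 without memory replicate 1 and 1 without memory replicate 2 or nonmemory replicate 2 or 3. Phosphate starvation genes were higher in 3 and lower in 2 of 14 (1 lower without nonmemory replicate 3), wax and cutin genes lower in 6 and higher in 2 of 28 (1 or 0 higher without any 1 plant), splicing SR factors lower in 2 of 20 and glutamate receptor-like genes higher in 5 and lower in 0 of 15 (2 lower without memory replicate 3 and 1 without replicate 1). Among calcium sensor kinases *CIPK20* was at 4905, 3851 and 3427 against 99.5, 147 and 86.2 (5.2 ± 0.23 SE, adjusted p = 3.01e-05), while *CIPK15* (-2.55) and *CIPK3* (-1.92) were lower, among 5 higher and 3 lower of 31 (5 lower without memory replicate 1).

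Of the 10 largest rises and 10 largest falls, 4 had no place in the pathways above. AT1G70640, for a protein with a PB1 domain, was at 1353, 1800 and 3161 against 99.5, 68.8 and 117 (log2 fold change 4.47), and *TPS03*, for a terpene synthase that makes wound-induced ocimene, at 1183, 1617 and 3437 against 81.6, 139 and 133 (4.15). AT1G50040, of unknown function, was at 86.8, 52.9 and 39.3 against 2416, 2526 and 2026 (-5.27), and *PP2-A5*, for a phloem lectin, at 25.1, 12.7 and 27.6 against 443, 753 and 933 (-5.01).

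Markers of the tissues a rosette sample could hold were compared beside these results. The leaf markers were abundant, with *RBCS1A* at 971548 normalized counts or more in each of the 6 plants, and 2 of 5 were higher, both antenna genes. Phloem (3 tested) and xylem (5 tested) markers were not called, and their summed counts overlapped between the classes. Of 4 tested trichome markers only *TRY* was called, higher in memory, and the log2 fold changes ran from -1.26 to 2.5. That call was lost with at least 10 counts required in every plant. Summed trichome counts were 228 to 298 in memory and 138 to 184 in nonmemory. Guard cell markers were higher in 3 of 4, *MYB60* by 0.68, *FAMA* by 0.63 and *KAT1* by 0.57 on the log2 scale (the last lost without memory replicate 1 or nonmemory replicate 1), with sums of 5218 to 6019 in memory and 3495 to 4332 in nonmemory. Of 5 senescence markers, *SAG13* was higher (2.43), a call lost with the replicate number as a block and without any plant but memory replicate 3, and *WRKY53* lower, as above, and the summed level ran from 1665 to 7927 in memory and from 6643 to 10967 in nonmemory. Root markers passed the filter in 2 of 8 cases, pollen and anther markers in 1 of 5, and 0 of these were called. The part of tissue makeup in the results was not tested.

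The nonmemory plants are also RNAi-null progeny, so the same genes were compared between nonmemory and Gen1 WT, with the same nonmemory plants. Here 1527 of 19815 genes were called (7.71%), 559 higher and 968 lower in nonmemory. For several of the genes with large changes the nonmemory plants were not called against WT. *PRR9* was at 33.0, 33.7 and 19.7 in WT (log2 fold change of nonmemory against WT 0.44, adjusted p = 0.35), *CBF3* at 74.4, 73.1 and 70.4 (-0.26), *PHI-1* at 4079, 9226 and 10516 (-0.05) and *XTH22* at 14371, 26243 and 30635 (-0.03). Other groups differed between the controls. Of the 23 cold genes 10 were called, among them *COR15A* (2.3), *KIN1* (2.59) and *GolS3* (2.24), all higher in nonmemory than in WT. Of the 15 salicylate genes 7 were called, with *PR1* (-3.89) and *ICS1* (-1.84) lower in nonmemory than in WT, so that for *PR1* the nonmemory plants were lowest of the 3 groups. Of the 8 type-A regulators 5 were called, with *ARR6* at 1283, 729 and 2062 in nonmemory and 77.3, 94.2 and 76.9 in WT (4.03). Memory plants had 615, 526 and 691 for *ARR6* (-1.15 against nonmemory), between the other groups, and that call was lost without memory replicate 1 or 2 or nonmemory replicate 1 or 3.

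The same effect can be set against a later generation. Gen5 memory plants, descended from Gen1 memory by selfing, and Gen5 WT plants share no plants with the comparison above, so the difference between the 2 effects was tested as an interaction. The generation and the kind of control (nonmemory sib or WT) change together in this test and cannot be told apart by it. The Gen1 WT plants were not part of it. Of 20138 genes tested, 32 were called (0.159%), and 1609 had an unadjusted p under 0.05. Of the 32, 28 were lower in memory in both generations, and in 29 the effect in Gen5 was the more negative. The largest differences were in AT3G11402 (log2 fold change -0.26 in Gen1 and -2.33 in Gen5) and in the abscisic acid receptor gene *PYL4* (-0.39 and -2.4). Some genes of walls and growth among the 32, chosen after their values were seen, are given with their effects. *THE1* had a log2 fold change of -2.94 in Gen1 and -3.67 in Gen5, *EXL3* -2.78 and -3.67, *EXL5* -2.55 and -3.79, and the arabinogalactan protein gene *FLA9* -2.21 and -3.62. *AGP17*, *AGP18* and *FLA2*, of the same class, and *CSLA03*, for a mannan synthase, were called as well. In *FLA9* the memory plants of the 2 generations were alike, at 1381, 1465 and 1121 in Gen1 and 1237, 1603 and 1257 in Gen5, and the controls differed, at 6230, 6319 and 5869 in Gen1 nonmemory and 15232, 17300 and 17938 in Gen5 WT. The number called became 2 without Gen1 nonmemory replicate 1, 10 to 13 without any 1 of the Gen5 WT plants, 11 without Gen5 memory replicate 1, and 53 without Gen1 memory replicate 3. It was 20 and 16 without Gen1 memory replicates 1 and 2, and 16 without Gen1 nonmemory replicate 3. Among the pathways above, 0 of the 17 morning clock genes, 0 of the 23 cold genes, 0 of the 19 antenna genes and 0 of the 22 XTH genes were among the 32. At a share of 0.159% over all genes, lists of this size would be likely to hold none. These zeros therefore do not show whether the effects were alike in the 2 generations. *PRR9* had 4.05 in Gen5, *CBF3* 7.2, *LHCB2.1* 2.99, *PHI-1* -11.8 and *BT2* -4.42, beside 5.01, 5.92, 3.14, -9.19 and -4.63 in Gen1.

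**Figure D5:**
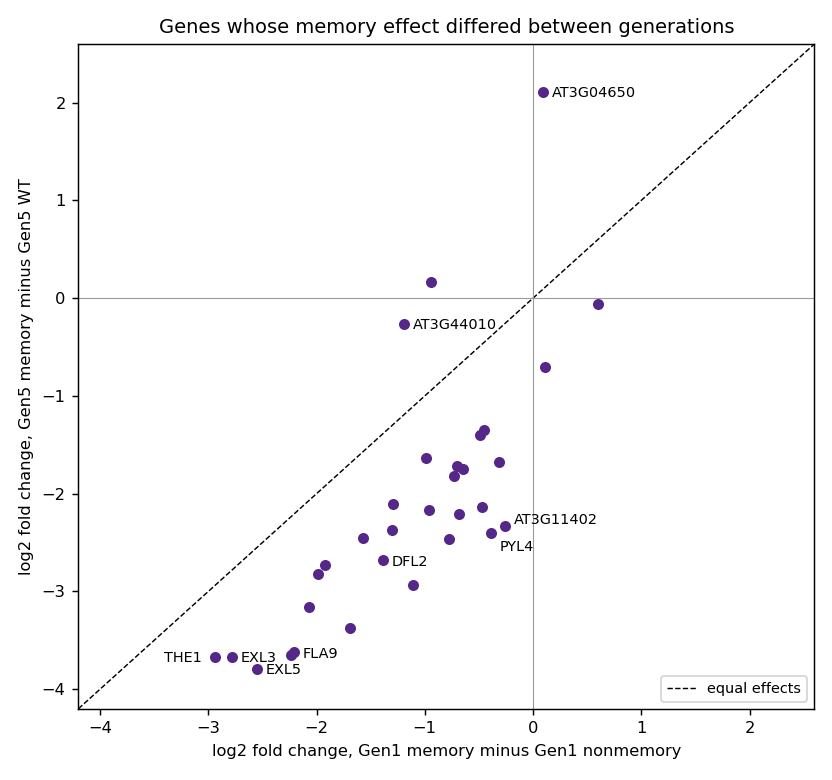
Log2 fold change of Gen5 memory against Gen5 WT (y axis) by that of Gen1 memory against Gen1 nonmemory (x axis) for the 32 genes whose effects differed, each point a gene, with equal effects on the dashed line. Of these, 28 lie below 0 on both axes, and *THE1* stands at -2.94 and -3.67.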

How the data were processed

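RNA of 15 plants in 5 groups of 3 was sequenced, and the 6 Gen1 memory and nonmemory plants carry the results here, with the Gen1 WT and the Gen5 plants as references. The authors aligned the reads with STAR 2.7.0a to TAIR10, per the submitters' processing notes, and counted uniquely mapped reads per gene with QoRTs without normalization, so the deposited values were raw counts. Rows of organelle genes and rows that name no gene were left out, and no column of per-sample values was left unmapped. Unique mapping lowers the counts of genes with near-identical copies, and strand was not used as far as the sources here state. Libraries of a class differed by more than sampling noise (chi-square per degree of freedom from 21.4 to 121), so all were kept as separate plants.

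The fits used edgeR 4.0.16 (R 4.3.3) on the nuclear counts of the 3 memory and 3 nonmemory plants, without a block. Low genes were removed by filterByExpr and libraries scaled by TMM, and p-values of the quasi-likelihood F test were adjusted by Benjamini-Hochberg over every gene in the fit. Every adjusted p in the text comes from these fits. Scaling factors were 0.9357 to 0.9517 in memory and 1.0303 to 1.0734 in nonmemory, and normalized counts are on the scale set by them. On simulated counts of 19711 genes, 50 of 50 genes changed by 2 on the log2 scale were recovered upward and 50 of 50 downward. Of those changed by 1, 47 of 50 and 48 of 50 were recovered, and there were 9 false calls. The simulation took its means and dispersions from the nonmemory plants alone, whose median SD was 0.087 on the log2 scale against 0.135 in memory. It changed 50 genes per size and direction, chosen from genes above a floor of counts. These figures hold for that setting, not for the more variable memory plants. Promoter windows and gene positions were read from TAIR10.1 with its RefSeq annotation, to which 32548 nuclear rows matched.

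The genes, the 57 lists (1420 genes, of which 1267 were tested) and the comparison were chosen with earlier results of these data known, and no list was tested as a set. Named genes were the 10 largest rises and 10 largest falls among called genes with a mean raw count of at least 100 and no overlap, up to 4 called members per list with the largest change, members that define a list by their role, *MSH1*, and the 5 largest differences in each direction for the interaction. Further list members given as examples, and those marked in the text, were chosen after their values were seen. Correlations of the deviations of same-numbered memory and nonmemory plants were -0.162, -0.0696 and 0.224, so the replicate numbers were not taken as pairs. Alternatives were other size factors, DESeq2 1.42.0, other filters, 1 fit over 15 plants, all rows of the tables, the replicate block, stricter thresholds and leaving out each plant.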

Additional observations from a re-analysis of the deposited data

Results flagged for a closer look

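The effects of memory in Gen1 (against nonmemory) and in Gen5 (against WT) differed in 32 genes by edgeR's quasi-likelihood test of the interaction. The generation and the kind of control cannot be told apart in this test. The genes with the largest differences in each direction, given as the Gen1 effect minus the Gen5 effect on the log2 scale, are as follows. In AT3G04650 the difference was -2.0, with effects of 0.09 in Gen1 and 2.11 in Gen5. In AT2G38820 it was -1.11 (-0.94 and 0.17) and in AT3G44010 -0.92 (-1.19 and -0.26), and no other gene was called with a negative difference. In AT3G11402 it was 2.08 (-0.26 and -2.33), in *PYL4* 2.02 (-0.39 and -2.4), in AT5G19190 1.82 (-1.11 and -2.93), in AT1G72416 1.69 (-1.69 and -3.37) and in AT1G24530 1.68 (-0.78 and -2.46).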

How the results depend on the processing

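The 4617 calls between memory and nonmemory became 4625 with other size factors (RLE), 4880 with DESeq2, 4619 without an expression filter, 4471 with at least 10 counts in every plant, 4943 in 1 fit over 15 plants, 4616 with all rows of the tables and 3433 at an adjusted p under 0.01. At an absolute log2 fold change over 1 there were 1803. Leaving out 1 plant gave 3870 to 4859, and 3194 (69.2%) of the calls remained in all 6 of these fits. With the replicate block there were 4418 calls (2075 higher and 2343 lower), of which 4293 were shared, and the block gave 1463 for nonmemory against WT and 34 for the interaction. Of 287 named genes 237 were called and 175 of these kept the call under every alternative at the same thresholds. No named gene reversed.

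The 32 interaction calls became 185 with DESeq2, 20 at an absolute log2 fold change over 1, 2 at an adjusted p under 0.01 and 2 to 53 without 1 plant. The 1527 calls between nonmemory and WT became 515 and 659 under the same stricter thresholds and 917 to 1875 without 1 plant. The cause of these differences was not tested.

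Some counts in lists moved under other settings. Higher WRKY genes were 11 with DESeq2, higher auxin synthesis genes 3 under the 10-count filter, higher salicylate genes 3 and higher heat shock genes 2 with the replicate block, lower iron genes 8 in the fit over 15 plants, and lower flavonoid genes 8 in that fit and 7 with DESeq2. With 3 plants per class, all from 1 parental line, p-values weigh the class difference against variation between such sib plants and not between lines. Genes near the detection limit, such as *TSF* and *YUC9*, rest on few counts.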
